A study of Homo sapiens with 12 samples.

Results

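Heme is made from glycine and succinyl-CoA by a chain of enzymes, and it is broken down by the heme oxygenases. The genes described here encode ALAS1, ALAD, UROS, UROD, CPOX, PPOX and FECH on the synthesis side and HMOX1 and HMOX2 on the breakdown side. They were chosen by their place in the pathway and kept where the expression tables listed them, which left 7 of 9 genes out of 8842 listed genes. UROS and PPOX were not among the listed genes and were not analysed here. The set was proposed with the low values of ALAD and CPOX after FASRL knockdown in both lines already known. The siFASRL and siNC values of these 2 genes are therefore given as a description, with no test of the knockdown.

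Transcripts were sequenced from HepG2 and LM3, established human liver cancer cell lines, to find the pathway downstream of the long noncoding RNA FASRL in hepatocellular carcinoma. Each line received either a small interfering RNA against FASRL (siFASRL) or a negative control (siNC) and was harvested after 48 h. The 4 groups, HepG2 siFASRL, HepG2 siNC, LM3 siFASRL and LM3 siNC, held 3 libraries each, 12 in all. No other agent or genetic change is named in the labels. The study designed several siRNAs against FASRL and chose among them for its later experiments, but which was used for sequencing is not stated. The study's methods say that experiments on cell lines were repeated, but nothing states that the replicates sequenced here were separate cultures, so p-values measure only the spread between these samples, which may be technical. FASRL was not among the listed genes, so its knockdown could not be checked in these libraries. The paper reports that it checked the knockdown in both lines for this experiment, in measurements not used here.

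The deposited values are normalized expression values per gene with 2 decimals, and whether they are FPKM or TPM is not stated. Either unit is scaled by gene length, so levels of different genes are compared on that scale only. Sequencing depth is unknown. The listed values of a library summed to 333193 to 338379 in HepG2 siNC and 347211 to 355094 in HepG2 siFASRL. In LM3 they summed to 316534 to 321859 in siNC and 346884 to 348573 in siFASRL. Sums were thus higher in every siFASRL library than in every siNC library of the same line. Pearson's r between replicates, across genes and on log2 values, lay between 0.9946 and 0.9988.

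The lines were checked against hepatocyte markers, of which 10 of 11 were listed. In HepG2 siNC the 10 values summed to 4744, 4699 and 4282, and in HepG2 siFASRL they summed to 2541, 2563 and 2605. SERPINA1, which encodes alpha-1 antitrypsin, was the most abundant marker in each of these 6 libraries, and no marker was listed at 0. APOA2 was an exception to the lower sum, at 639, 682 and 569 in siNC and 681, 800 and 791 in siFASRL. In LM3 siNC the sums were only 14.8, 19.4 and 17.5, and in LM3 siFASRL they were 7.55, 7.75 and 6.38. The most abundant marker there was HNF4A, a hepatocyte transcription factor, which was at 14.2 to 14.4 in LM3 siNC and at 6.17 to 7.64 in LM3 siFASRL. The other 9 markers did not exceed 1.73 in any LM3 library, and between 0 and 6 of them were listed at 0, so LM3 carried almost none of the secreted liver proteins' transcripts. Low values of these 9 markers stood apart in LM3 siNC replicates 2 and 3, where they summed to 4.98 and 3.31, against 0.41 in replicate 1 and 1.23, 0.11 and 0.21 in the LM3 siFASRL libraries. The sums of replicates 2 and 3 were 0.11% and 0.073% of the mean in HepG2 siNC. Where leaving out both libraries ended a call or turned a direction of a member, the value without them is given beside it.

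Few markers of other cell types were listed. Of 10 erythroid genes EPOR alone was listed, at 8.3 to 9.33 in HepG2 siNC, 4.17 to 5.02 in HepG2 siFASRL, 3.05 to 3.41 in LM3 siNC and 0.95 to 1.15 in LM3 siFASRL. Of 7 macrophage markers 3 were listed, and their sums were 123.04 to 128.2 in HepG2 siNC, 88.1 to 98.0 in HepG2 siFASRL, 15.1 to 18.2 in LM3 siNC and 18.5 to 19.1 in LM3 siFASRL. LYZ or CD68 was the most abundant of them. Of 6 fibroblast markers 5 were listed, led by COL1A1 or COL3A1, with sums of 70.6 to 72.2 in HepG2 siNC, 32.3 to 35.4 in HepG2 siFASRL, 13.2 to 15.1 in LM3 siNC and 4.69 to 5.86 in LM3 siFASRL. Up to 3 of these 5 were listed at 0 in LM3 libraries. VWF, the single listed gene of 4 endothelial markers, did not exceed 0.35. Hepatocyte and fibroblast sums and EPOR were thus lower in every siFASRL library than in every siNC library of the same line, and their part in the results on heme genes was not tested. In bulk samples such as these, fewer cells of a type and less RNA per cell cannot be told apart.

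The pathway starts in mitochondria, where ALAS1 makes 5-aminolevulinic acid. This is the rate-limiting step in liver, and heme itself restrains it. The middle steps run in the cytosol, from ALAD to UROS and UROD, and the last ones return to mitochondria, where CPOX, PPOX and FECH complete the ring and insert iron. Liver uses much of its heme for cytochrome P450 enzymes. HMOX1, which is inducible by stress, and HMOX2, which is largely constitutive, open the ring to give biliverdin, iron and carbon monoxide.

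In GENCODE v29 (GRCh38), all 7 members are protein-coding genes. ALAS1 (gene identifier 211) runs from 52198086 to 52214327 on the plus strand of chromosome 3. ALAD (210) runs from 113386317 to 113401333 on the minus strand of chromosome 9, and UROD (7389) from 45012147 to 45015575 on the plus strand of chromosome 1. CPOX (1371) lies on the minus strand of chromosome 3 from 98579446 to 98593723, and FECH (2235) on the minus strand of chromosome 18 from 57548283 to 57586772. HMOX1 (3162) spans 35380361 to 35394214 on the plus strand of chromosome 22, and HMOX2 (3163) spans 4474690 to 4510347 on the plus strand of chromosome 16. CPOX shares 163 exonic bases, 5.0% of its own, with AC021660.3 on the same strand. HMOX2 shares 228 exonic bases (6.0%) with NMRAL1 on the opposite strand. FECH has a processed pseudogene, FECHP1, on chromosome 3. Whether counting used strand is not stated, so reads of NMRAL1 in the shared bases cannot be told apart from those of HMOX2. Strand would not separate AC021660.3 from CPOX, and the part of FECHP1 in the FECH values was not tested.

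Promoters of 6 of the 7 members were found in the RefSeq promoter table (GRCh38.p14), and HMOX1 was not among them. Those of ALAS1 and of the 3 synthesis genes with lower values after knockdown in both lines (ALAD, CPOX and FECH) are shown, each with 300 bases from 5′ to 3′ on the gene's strand. ALAS1 is at chr3:52197833-52198132 (plus strand), ALAD at chr9:113401235-113401534 (minus strand), CPOX at chr3:98593562-98593861 (minus strand) and FECH at chr18:57586653-57586952 (minus strand). ALAD and HMOX2 have 2 entries each in the table, and the first of each was used. Capitals mark matches, on either strand, to the GC box GGGCGG, the NRF1 core GCATGCGC, the E-box CACGTG or the antioxidant response core TGACNNNGC.
ALAS1: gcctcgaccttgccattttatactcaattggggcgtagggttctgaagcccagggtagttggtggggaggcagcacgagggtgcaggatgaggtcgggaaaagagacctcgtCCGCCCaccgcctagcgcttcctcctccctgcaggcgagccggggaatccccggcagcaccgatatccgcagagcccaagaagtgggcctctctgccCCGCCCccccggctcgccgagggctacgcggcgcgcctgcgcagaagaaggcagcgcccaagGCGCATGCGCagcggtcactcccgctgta
ALAD: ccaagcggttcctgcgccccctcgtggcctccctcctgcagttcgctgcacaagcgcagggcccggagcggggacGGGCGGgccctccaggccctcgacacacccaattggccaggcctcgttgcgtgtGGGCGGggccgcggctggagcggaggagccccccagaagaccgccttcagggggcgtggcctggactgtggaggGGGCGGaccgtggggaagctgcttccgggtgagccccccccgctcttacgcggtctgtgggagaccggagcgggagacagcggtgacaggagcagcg
CPOX: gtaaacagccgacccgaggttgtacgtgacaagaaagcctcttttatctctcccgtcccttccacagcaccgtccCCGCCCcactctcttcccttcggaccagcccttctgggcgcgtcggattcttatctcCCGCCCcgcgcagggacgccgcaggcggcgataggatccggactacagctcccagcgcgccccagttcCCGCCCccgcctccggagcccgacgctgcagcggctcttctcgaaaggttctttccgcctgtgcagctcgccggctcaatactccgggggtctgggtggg
FECH: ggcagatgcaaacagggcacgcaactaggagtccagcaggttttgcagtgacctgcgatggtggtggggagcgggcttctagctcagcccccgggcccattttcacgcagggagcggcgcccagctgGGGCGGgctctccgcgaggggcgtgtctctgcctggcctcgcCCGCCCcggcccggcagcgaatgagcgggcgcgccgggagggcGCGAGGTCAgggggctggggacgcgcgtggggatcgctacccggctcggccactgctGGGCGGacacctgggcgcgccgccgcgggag
The ALAS1 promoter holds 2 overlapping NRF1 cores, one on each strand, and 2 GC boxes. ALAD and CPOX each hold 3 GC boxes and none of the other 3 motifs. FECH holds 3 GC boxes and, on the strand opposite to the gene's own, 1 antioxidant response core. Of the members whose promoters are not shown, UROD holds 1 GC box, and HMOX2 holds 1 GC box and 1 E-box. Among all 35116 promoters of the table, 45.0% hold the GC box, 3.05% the NRF1 core, 7.26% the E-box and 13.3% the antioxidant response core. Among promoters of the listed genes these shares were 64.2%, 4.19%, 8.91% and 14.5%. Each match is a description of letters in this window, not a binding site.

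Differences were tested with limma on log2(value + 1) with Benjamini-Hochberg adjustment over all genes that reached a value of 1 in 3 or more libraries of the fit, and a gene was called at an adjusted p under 0.05. All 7 members passed this filter in every fit. On this scale the change of low genes, such as FECH and ALAD, is understated by the added 1. An exact permutation test of 3 libraries against 3 cannot give a p below 0.1, the value reached by each comparison of a single member without overlap. In HepG2 the list of genes holds almost none with a log2 difference between -0.175 and -0.025 (6 of 6367 genes whose mean was 5 or more, against 573 of 5937 in LM3). How the listed genes were chosen is not stated, so shares of called genes and adjusted p-values in HepG2 may be over preselected genes. The same list was used for LM3, the interaction, the line difference and the shares over both lines, so this limit extends to them.

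ALAS1, the first and rate-limiting enzyme, was higher after FASRL knockdown in both lines. In HepG2 it was at 42.1, 39.1 and 42.5 in siNC and at 51.6, 51.7 and 50.6 in siFASRL. LM3 libraries had 38.8, 38.1 and 37.2 in siNC and 44.3, 43.8 and 42.7 in siFASRL. Every siFASRL library was above every siNC library of its line, with the wider gap in HepG2. ALAS1 rose by 0.31 on the log2 scale in HepG2 (95% interval 0.18 to 0.43, limma adjusted p = 0.000542), to 124.3% of siNC. The rise in LM3 was 0.19 (0.08 to 0.30, limma adjusted p = 0.0058), to 114.6% of siNC. The difference between the lines was -0.12 (-0.26 to 0.03) with a limma adjusted p of 0.166 for the interaction, which does not show that the lines responded alike. With quantile normalization the HepG2 rise shrank to 0.19, and the LM3 value shrank to 0.12 and was no longer called (limma adjusted p = 0.0697, the highest of 14 alternatives, with the lowest at 0.000398). Median-of-ratios scaling moved the LM3 value up to 0.31, and centring HepG2 on its sparse window brought the interaction to -0.22 (limma adjusted p = 0.0144, against up to 0.612 over 20 alternatives).

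ALAD condenses 5-aminolevulinic acid into porphobilinogen. Its values in HepG2 were 13.7, 13.4 and 14.7 in siNC and 4.66, 5.30 and 4.97 in siFASRL. In LM3 they were 9.86, 10.2 and 9.99 in siNC and 3.79, 3.74 and 4.05 in siFASRL. The groups did not overlap in either line, as was so for 89.6% of all genes tested in HepG2 and 80.1% in LM3. The siFASRL mean was 35.8% of siNC in HepG2 and 38.6% in LM3, or -1.32 and -1.18 on the log2 scale. The ratio of ALAS1 to ALAD, 2.97 ± 0.11 (SD, n = 3) in HepG2 siNC, was 10.3 ± 0.67 in HepG2 siFASRL. In LM3 it was 3.8 ± 0.12 in siNC and 11.3 ± 0.67 in siFASRL. These ratios contain ALAD and are descriptions as well.

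UROD, which removes carboxyl groups from uroporphyrinogen in the cytosol, did not follow ALAD. In HepG2 it was at 39.3, 41.2 and 41.6 in siNC and at 44.0, 48.4 and 46.1 in siFASRL. The LM3 values were 28.1, 30.4 and 31.0 in siNC and 30.4, 27.4 and 27.1 in siFASRL. All 3 siFASRL libraries of HepG2 lay above siNC, whereas the groups of LM3 overlapped. UROD rose by 0.18 in HepG2 (0.05 to 0.31, limma adjusted p = 0.0161), to 113.5% of siNC. In LM3 the difference was -0.07 (-0.22 to 0.07, limma adjusted p = 0.323, exact permutation p = 0.3), and a p above the threshold does not show that values did not differ. The interaction between lines was -0.25 (-0.43 to -0.07, limma adjusted p = 0.027).

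Both UROD calls rested on narrow margins. The HepG2 rise was lost with quantile normalization (0.07, limma adjusted p = 0.285), without HepG2 siFASRL replicate 2 (0.14, limma adjusted p = 0.0777) and without HepG2 siNC replicate 1 (0.15, limma adjusted p = 0.062). Its limma adjusted p ran from 0.00132 to 0.285 over 14 alternatives, and centring HepG2 on its sparse window raised the value to 0.28. The interaction was lost in 10 of 20 alternatives, over which its limma adjusted p ran from 0.00369 to 0.203. These included leaving out HepG2 siFASRL 2 (-0.22), HepG2 siNC 1 (-0.23), LM3 siFASRL 2 (-0.23) or 3 (-0.22), LM3 siNC 2 (-0.24) or 3 (-0.22), and LM3 siNC 2 and 3 together (-0.17). In LM3 the uncalled value was larger with quantile normalization (-0.114), without LM3 siFASRL 1 (-0.124) and without LM3 siNC 1 (-0.114), where the limma adjusted p was 0.0931, the lowest of 14 alternatives that reached 0.913. It was smaller without LM3 siFASRL 3 (-0.044) or LM3 siNC 3 (-0.045), and its sign turned to 0.042 with median-of-ratios scaling and to 0.01 without LM3 siNC 2 and 3.

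CPOX, the mitochondrial oxidase that makes protoporphyrinogen, was at 17.8, 19.2 and 16.3 in HepG2 siNC and at 9.18, 9.27 and 9.32 in HepG2 siFASRL. LM3 had 13, 11.5 and 11.03 in siNC and 6.07, 5.77 and 5.48 in siFASRL. Groups did not overlap for CPOX in either line, as for 89.6% of all genes tested in HepG2 and 80.1% in LM3. The siFASRL mean was 52.0% of siNC in HepG2 and 48.8% in LM3, or -0.87 and -0.92 on the log2 scale. As a description, the LM3 value minus the HepG2 value was -0.05 for CPOX and 0.14 for ALAD. Quantile normalization moved these to 0.17 for CPOX and 0.44 for ALAD, and centring HepG2 on its sparse window moved them to -0.15 and 0.039. The CPOX value also moved to 0.01 with median-of-ratios scaling and -0.18 without LM3 siNC 2 and 3, so its sign was not settled.

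FECH, ferrochelatase, inserts iron to finish the ring. In HepG2 it was at 8.43, 8.29 and 8.77 in siNC and at 3.41, 3.96 and 4.04 in siFASRL. The LM3 libraries were at 8.36, 7.83 and 8.84 in siNC and at 4.94, 4.96 and 5.46 in siFASRL. The siNC levels of the lines were nearly the same, and the siFASRL libraries of HepG2 were all below those of LM3. FECH fell by 0.99 on the log2 scale in HepG2 (interval -1.13 to -0.84, limma adjusted p = 7.91e-07), to 44.8% of siNC. In LM3 it fell by 0.61 (interval -0.75 to -0.47, limma adjusted p = 2.97e-05), to 61.4% of siNC. The fall was smaller in LM3, with an interaction of 0.38 (0.18 to 0.57, limma adjusted p = 0.00379) that was called in all 20 alternatives. With quantile normalization the LM3 value was -0.40. The ratio of ALAS1 to FECH, the first and last enzymes, was 4.85 ± 0.14 (SD, n = 3) in HepG2 siNC and 13.6 ± 1.4 in HepG2 siFASRL. In LM3 it was 4.57 ± 0.34 in siNC and 8.54 ± 0.63 in siFASRL, and the groups did not overlap in either line.

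**Figure D1:**
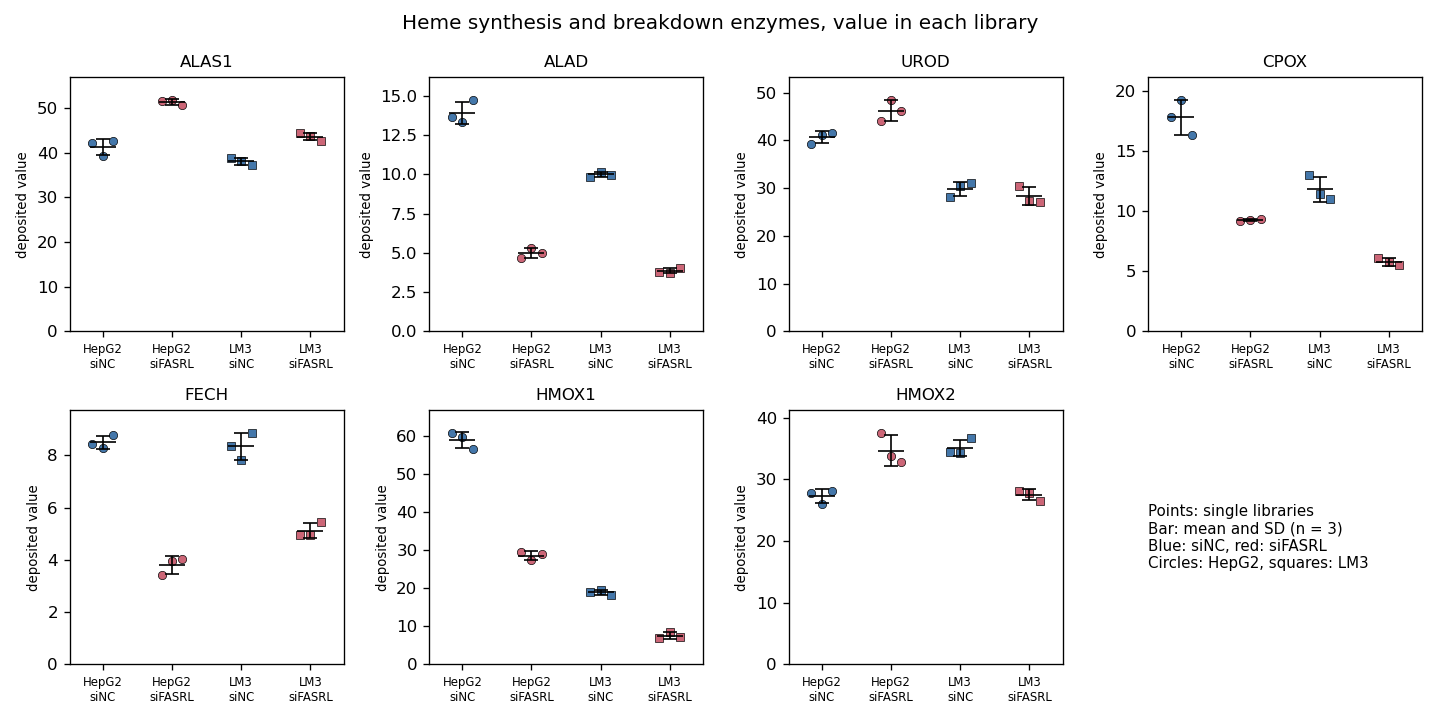
Deposited expression value (y axis) of each of the 7 members in every library, by cell line and siRNA (x axis), with the mean and SD of 3 libraries. ALAD, CPOX, FECH and HMOX1 are lower in siFASRL in both lines, ALAS1 is higher in both (51.3 against 41.2 in HepG2 and 43.6 against 38.0 in LM3), and HMOX2 differs in opposite directions.

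HMOX1, the inducible heme oxygenase, was at 60.7, 59.6 and 56.6 in HepG2 siNC and at 29.4, 27.4 and 28.98 in HepG2 siFASRL. LM3 was at 18.9, 19.6 and 18.3 in siNC and at 6.99, 8.52 and 7.15 in siFASRL. The 4 groups occupied separate ranges, in the order HepG2 siNC, HepG2 siFASRL, LM3 siNC and LM3 siFASRL. HMOX1 fell by 1.02 in HepG2 (interval -1.15 to -0.89, limma adjusted p = 3.12e-07), to 48.5% of siNC. In LM3 it fell by 1.22 (interval -1.39 to -1.06, limma adjusted p = 2.11e-06), to 39.9% of siNC. A call with a log2 difference of -1 or lower was made for 6.79% of all genes tested in HepG2 and 6.2% in LM3, and HMOX1 reached it in both lines. In HepG2 it stood close to this limit, at -0.92 with HepG2 centred, -0.99 without HepG2 siFASRL replicate 2 and -0.999 without HepG2 siNC replicate 1. FECH in HepG2, just short of the limit, passed it with a pseudocount of 0.1 (-1.14) and without HepG2 siFASRL replicate 2 (-1.01) or 3 (-1.02) or HepG2 siNC replicate 2 (-1.001). The interaction of -0.21 (-0.41 to 0.00) was not called (limma adjusted p = 0.0888). It was called with a pseudocount of 0.1 (-0.28, limma adjusted p = 0.0496), with HepG2 centred (-0.31, limma adjusted p = 0.015) and without LM3 siFASRL replicate 2 (-0.28, limma adjusted p = 0.0112). With quantile normalization it turned to 0.10 (limma adjusted p = 0.422, the highest of 20 alternatives, with the lowest at 0.0112).

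HMOX2, the constitutive oxygenase, moved in opposite directions in the lines. In HepG2 it was at 27.7, 26.0 and 28.2 in siNC and at 37.4, 33.7 and 32.8 in siFASRL. In LM3 it was at 34.3, 34.3 and 36.6 in siNC and at 28.2, 27.8 and 26.5 in siFASRL. All siFASRL libraries were above siNC in HepG2 and all were below siNC in LM3, without overlap. HMOX2 rose by 0.33 in HepG2 (0.18 to 0.48, limma adjusted p = 0.000977), to 127.0% of siNC, and fell by 0.34 in LM3 (interval -0.46 to -0.22, limma adjusted p = 0.000402), to 78.3% of siNC. The interaction was -0.67 (-0.85 to -0.50, limma adjusted p = 2.47e-05). Both directions and all 3 calls held under every alternative that was computed for single genes, quantile normalization and median-of-ratios scaling included, although the latter brought the LM3 value to -0.23.

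The share of HMOX1 in the summed values of both oxygenases did not overlap between siNC and siFASRL in either line. HMOX1 made up 68.7%, 69.7% and 66.8% of the summed HMOX1 and HMOX2 values in HepG2 siNC and 44.0%, 44.8% and 46.9% in HepG2 siFASRL. In LM3 it made up 35.5%, 36.4% and 33.3% in siNC and 19.9%, 23.5% and 21.3% in siFASRL. HMOX1 was the larger of the pair in HepG2 siNC libraries only, and HMOX2 was the larger in the libraries of the other 3 groups. The mean share was 68.4 ± 1.5% (SD, n = 3) in HepG2 siNC, 45.2 ± 1.5% in HepG2 siFASRL, 35.1 ± 1.6% in LM3 siNC and 21.5 ± 1.8% in LM3 siFASRL.

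**Figure D2:**
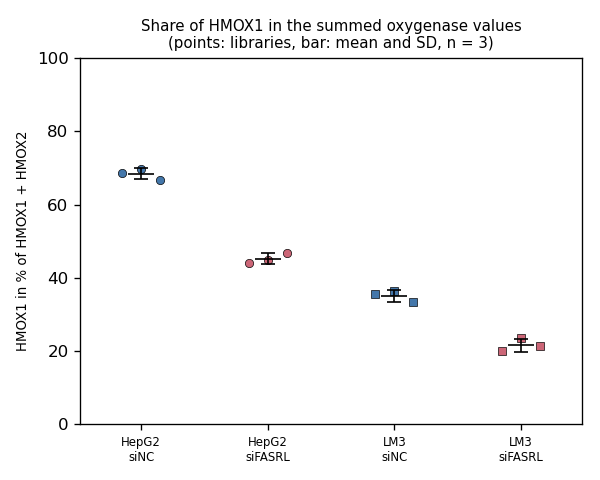
HMOX1 as a percentage of the summed HMOX1 and HMOX2 values (y axis) in each library of the 4 groups (x axis), with mean and SD of 3 libraries. The share is 68.4% in HepG2 siNC and 45.2% in HepG2 siFASRL, and 35.1% in LM3 siNC and 21.5% in LM3 siFASRL.

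Set side by side, the steps of the pathway did not move together. Of the 5 members other than ALAD and CPOX, 3 were higher (ALAS1, UROD and HMOX2) and 2 lower (FECH and HMOX1) in HepG2. Among all genes tested in HepG2, 44.8% were called higher and 44.3% lower, so a call was the usual outcome for a listed gene. In LM3 1 of the 5 was higher (ALAS1), 3 were lower (FECH, HMOX1 and HMOX2) and UROD was not called, where 33.9% of all genes were called higher and 43.5% lower. The median log2 difference of the 5 was 0.18 in HepG2, against 0.10 over all genes, and -0.34 in LM3, against -0.06. In HepG2 this median was the value of UROD, which became 0.07 with quantile normalization, against 0.051 over all genes. In LM3 it was the value of HMOX2, which became -0.23 with median-of-ratios scaling. Median-of-ratios scaling moved the LM3 median of all genes from -0.062 to 0.045. The balance of all LM3 calls turned with scaling, from 2536 higher and 3254 lower to 3140 and 2769 with median-of-ratios scaling and 2808 and 2598 with quantile normalization. FECH and HMOX1 were lower in both lines, as were 36.0% of the genes tested in both, and ALAS1 was higher in both, as were 29.6%. HMOX2 was called in opposite directions, which held for 5.31% of these genes. Groups did not overlap for any of the 5 members in HepG2, where this was so for 89.6% of all genes, and for 4 of 5 in LM3, where it was so for 80.1%.

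**Figure D3:**
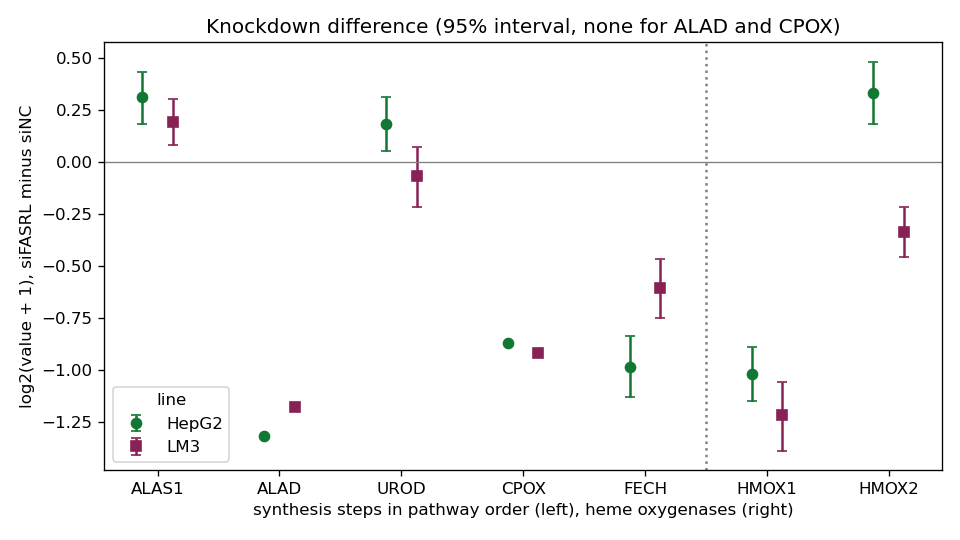
Difference of siFASRL minus siNC in log2(value + 1) (y axis) for the members in pathway order (x axis), in HepG2 (circles) and LM3 (squares), with 95% intervals from limma except for ALAD (-1.32 and -1.18) and CPOX (-0.87 and -0.92), which are drawn as a description. The intervals of FECH (-0.99 and -0.61) and HMOX1 (-1.02 and -1.22) lie below 0 in both lines, and that of UROD in LM3 includes 0.

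The interaction was called for 3 of the 5 members (UROD, FECH and HMOX2), against 46.7% of all genes tested. Over all genes 41.7% of the interaction calls were positive, which became 52.7% with median-of-ratios scaling. With HepG2 centred on its sparse window, a choice added for the interaction after seeing the data, 1147 of 4319 calls were positive, against 1612 of 3868 before. FECH and HMOX2 kept their sign and call under both settings. UROD kept both with HepG2 centred and its sign only with median-of-ratios scaling. With HepG2 centred, ALAS1 (-0.22, limma adjusted p = 0.0144) and HMOX1 (-0.31, limma adjusted p = 0.015) were called as well, so all 5 members were. With median-of-ratios scaling FECH and HMOX2 alone were called.

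Levels under siNC were then compared between the lines. This comparison shares its siNC libraries with both knockdown comparisons, including those on which ALAD and CPOX were selected, so the values of these 2 genes are a description. HMOX1 differed most, with a mean of 18.9 in LM3 against 59.0 in HepG2, or 32.1% (log2 difference -1.59, interval -1.72 to -1.46, limma adjusted p = 4.15e-08). ALAD had means of 10.01 in LM3 and 13.9 in HepG2, and CPOX had means of 11.8 and 17.8. UROD was lower in LM3 by -0.44 (-0.57 to -0.30, limma adjusted p = 0.000168). HMOX2 was the reverse, at 35.1 in LM3 against 27.3 in HepG2 (log2 difference 0.35, limma adjusted p = 0.000563). All 3 libraries of each line shared the direction for HMOX1, UROD and HMOX2. ALAS1 was lower in 3 of 3 LM3 libraries, at 92.2% of HepG2, but was not called (-0.11, limma adjusted p = 0.0924). FECH overlapped between the lines (-0.02, interval -0.16 to 0.11, limma adjusted p = 0.715). Thus 2 of the 5 members other than ALAD and CPOX were lower in LM3 and 1 was higher, where 40.6% of all genes tested were lower and 40.4% higher.

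Of the results on the lines, those of ALAS1 and FECH moved with the settings. The ALAS1 difference was called with quantile normalization (-0.15, limma adjusted p = 0.0476) and in a joint fit of the 12 libraries (limma adjusted p = 0.0353), the lowest of 14 alternatives that reached 0.438. FECH turned to 0.11 with quantile normalization and to 0.0155 without LM3 siNC replicate 2, not called in either. Quantile normalization moved the median of all genes in this comparison from 0.003 to 0.139.

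The order of levels, on the length-scaled values, differed among the groups. In HepG2 siNC HMOX1 (59.0) was followed by ALAS1 (41.2) and UROD (40.7), whose libraries overlapped, and then by HMOX2 (27.3), CPOX (17.8), ALAD (13.9) and FECH (8.50). After FASRL knockdown in HepG2 the order was ALAS1 (51.3), UROD (46.2), HMOX2 (34.6), HMOX1 (28.6), CPOX (9.26), ALAD (4.98) and FECH (3.80), with no overlap between neighbours. HMOX1 had thus passed from the first place to the fourth. In LM3 siNC the order was ALAS1 (38.0), HMOX2 (35.1), UROD (29.8), HMOX1 (18.9), CPOX (11.8), ALAD (10.01) and FECH (8.34), again with no overlap between neighbours. In LM3 siFASRL ALAS1 (43.6) came before UROD (28.3) and HMOX2 (27.5), which overlapped, and before HMOX1 (7.55), CPOX (5.77), FECH (5.12) and ALAD (3.86). ALAD was the lowest member in that group, whereas FECH was the lowest in the other 3.

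Further genes of heme metabolism were counted from lists of other steps, transport, regulators and heme use. Of 5 genes of the first list 2 were listed. HP (haptoglobin) and HPX (hemopexin), plasma proteins of hepatocytes that bind hemoglobin and heme, fell in HepG2. HP was at 66.1, 64.6 and 55.6 in siNC and at 13.2, 12.5 and 14.9 in siFASRL, a log2 difference of -2.12 (limma adjusted p = 5.5e-08). HPX was at 5.33, 4.54 and 3.62 in siNC and at 2.60, 3.17 and 3.12 in siFASRL, a difference of -0.46 (limma adjusted p = 0.0027). The HPX call was lost with quantile normalization (-0.21, limma adjusted p = 0.091, against a lowest value of 0.000405 over 14 alternatives). In LM3 neither passed the filter, with HP at most 0.1 and HPX at most 0.17. The summed hepatocyte markers were lower in the same HepG2 libraries, with the exception of APOA2 among them, and their part in these falls was not tested.

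Of 15 transport genes 6 were listed. In HepG2 4 of the 6 fell, 1 rose and 1 was not called, and in LM3 3 of 5 tested fell and 2 rose. Among all genes tested 44.3% fell and 44.8% rose in HepG2, and 43.5% fell and 33.9% rose in LM3, where more rose than fell under either other scaling. ABCB10, a transporter of the inner mitochondrial membrane needed for heme synthesis, fell by 0.70 in HepG2 (limma adjusted p = 1.72e-06) and fell by 0.87 in LM3 (limma adjusted p = 7.86e-06). Its values were 10.2 to 10.5 in HepG2 siNC, 5.81 to 6.20 in HepG2 siFASRL, 14.5 to 15.2 in LM3 siNC and 7.14 to 8.63 in LM3 siFASRL. SLC48A1, which carries heme out of endosomes and lysosomes, fell by 0.66 in HepG2 (limma adjusted p = 1.24e-05) and fell by 0.98 in LM3 (limma adjusted p = 1.07e-06). ABCG2, an exporter of porphyrins at the cell surface, fell by 0.73 in HepG2 (limma adjusted p = 4.38e-06), from 2.83 to 1.32, and was at -0.38 with quantile normalization. It did not pass the filter in LM3, where it was at most 0.77. The medians of the listed transport genes tested were -0.68 in HepG2 and -0.38 in LM3.

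Of 16 regulators 14 were listed, HNF4A of the hepatocyte markers among them. In HepG2 4 rose, 6 fell and 4 were not called, and in LM3 7 of 12 tested rose, 3 fell and 2 were not called, with medians of 0.07 and 0.19. In HepG2 28.6% of the regulators rose and 42.9% fell, against 44.8% and 44.3% of all genes, and in LM3 58.3% rose and 25% fell, against 33.9% and 43.5%. CLPX, a mitochondrial unfoldase that activates ALAS enzymes and, in the presence of heme, directs ALAS1 to degradation, was at 24.8, 23.7 and 24.2 in HepG2 siNC and at 7.0, 8.08 and 7.69 in HepG2 siFASRL. The values in LM3 were 24.2, 22.4 and 22.7 in siNC and 9.89, 10.7 and 10.7 in siFASRL. CLPX levels were alike in the siNC groups and far lower in every siFASRL library. It fell by 1.56 in HepG2 (limma adjusted p = 5.5e-08) and fell by 1.08 in LM3 (limma adjusted p = 1.02e-06). MAFF, a small MAF protein that pairs with NFE2L2 or BACH1 at antioxidant response elements, rose by 1.04 in HepG2 (limma adjusted p = 5.52e-07) and by 0.85 in LM3 (limma adjusted p = 1.65e-06). Its values were 8.0 to 9.40 in HepG2 siNC, 18.9 to 19.4 in HepG2 siFASRL, 2.78 to 2.98 in LM3 siNC and 5.89 to 6.15 in LM3 siFASRL.

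Of 12 genes of heme use 8 were listed. In HepG2 4 rose and 4 fell, and in LM3 3 rose, 4 fell and 1 was not called, with medians of -0.10 and -0.05, which was near the shares of all genes (44.8% and 44.3% in HepG2, 33.9% and 43.5% in LM3). SQLE, squalene epoxidase of cholesterol synthesis, is a flavoprotein that holds no heme, although it stood on this list. It fell by 0.98 in HepG2 (limma adjusted p = 2.95e-07) and fell by 1.72 in LM3 (limma adjusted p = 2.89e-07). Its values were 21.7 to 23.5 in HepG2 siNC, 10.8 to 11.2 in HepG2 siFASRL, 42.0 to 45.9 in LM3 siNC and 11.7 to 13.4 in LM3 siFASRL. CYCS, which encodes the heme protein cytochrome c, rose by 0.83 in HepG2 (limma adjusted p = 3.15e-06) and by 0.88 in LM3 (limma adjusted p = 3.09e-06). The siFASRL mean of CYCS was 182.7% of siNC in HepG2 and 185.6% in LM3.

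**Figure D4:**
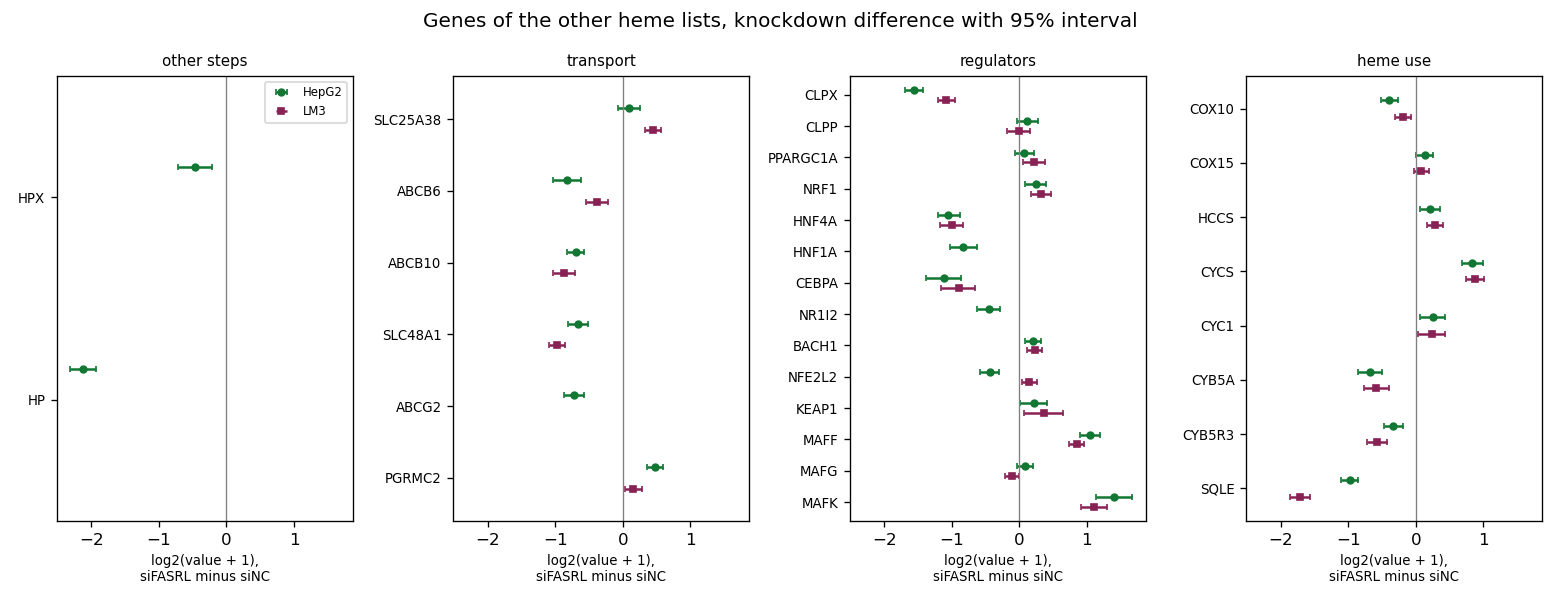
Difference of siFASRL minus siNC in log2(value + 1) (x axis), with 95% intervals from limma, for the tested genes of the 4 other heme lists (y axis), in HepG2 (circles) and LM3 (squares). CLPX (-1.56 and -1.08), SQLE (-0.98 and -1.72) and, named here after their values were seen, HNF4A (-1.05 and -0.998) and CEBPA (-1.12 and -0.90) lie below 0 in both lines, and MAFF (1.04 and 0.85), CYCS (0.83 and 0.88) and MAFK (1.40 and 1.11, also named after its values were seen) lie above.

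The genes whose pattern over the 12 libraries was most like a member were found by Pearson's r of log2(value + 1) among 7967 genes with a mean of at least 1, as a description. For ALAD they were B4GALT3 (r = 0.997), ALDH3A2 (0.995) and GNE (0.993). NFIB (0.99) and ADSSL1 (0.99) were among the 3 most like CPOX. FAF2 (0.987), PPP1R11 (0.984) and TAF3 (0.983) were most like ALAS1, and SORT1 (0.998), TBC1D17 (0.997) and F10 (0.996) were most like HMOX1. B4GALT3 had means of 25.2 in HepG2 siNC, 11.8 in HepG2 siFASRL, 18.8 in LM3 siNC and 10.3 in LM3 siFASRL, the order of groups seen for ALAD. The libraries form 4 groups of 3 replicates, so the 12 points are not independent.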

How the data were processed

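RNA-seq of HepG2 and LM3 cells was analysed in 12 libraries, grouped by the cell line, siRNA and replicate number in their labels. The authors filtered reads with SOAPnuke, mapped them with HISAT2, aligned them to a coding gene set with Bowtie2 and computed gene expression with RSEM. The deposited signal values are normalized, with 2 decimals, and whether they are FPKM or TPM is not stated. They are not counts, so depth is unknown and precision is taken from the 3 replicates. The labels name hg19, whereas chromosome names in the tables are those of GRCh38. The RefSeq gene table held 8790 of the 8842 gene identifiers, and 17 symbols that had become dates were restored. A further 6 columns, which repeat LM3 values, were not used.

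limma (3.58.1, R 4.3.3) was fitted on log2(value + 1), keeping genes that reached 1 in 3 or more libraries of the fit, with Benjamini-Hochberg adjustment. Each knockdown and the line difference used 6 libraries, and the interaction used 12. A gene was called at an adjusted p under 0.05. The design named a count test for the case of read counts, which did not apply. The fits were tested on simulated data. Exact permutation tests were two-sided. Tables and plots used Python (3.11.15), pandas (2.3.3), numpy (2.4.6), scipy (1.17.1) and matplotlib (3.10.9).

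The members and lists were chosen with earlier results of these data known. Named are all members, the 2 genes of each heme sublist with the lowest p among those called in each knockdown comparison, and the 3 genes most like ALAD, CPOX, ALAS1 and HMOX1. UROS and PPOX were not analysed here, and some genes that the rule names are not reported here. Alternatives were a pseudocount of 0.1, no filter, quantile normalization, median-of-ratios scaling, a replicate block, a joint fit, a trended prior, Bonferroni adjustment, an added fold threshold of 1 (log2), centring of HepG2 on its sparse window, and leaving out each library in turn. Leaving out LM3 siNC 2 and 3 together, and centring for the interaction, were added after seeing the data.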

Additional observations from a re-analysis of the deposited data

Results flagged for a closer look

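The knockdown differences of UROD, FECH and HMOX2 differed between the cell lines, with interactions (LM3 minus HepG2, log2 scale) of -0.25 for UROD (limma adjusted p = 0.027), 0.38 for FECH (limma adjusted p = 0.00379) and -0.67 for HMOX2 (limma adjusted p = 2.47e-05). The UROD interaction was lost in 10 of 20 alternatives, with a limma adjusted p of up to 0.203.

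Of 6 genes named from the other lists by their lowest p and tested in both lines, 3 had a called interaction, near the 46.7% of all genes. HNF4A, CEBPA and MAFK, named after their values were seen, are not among these 6, and no interaction is given for them. For SLC48A1 the interaction was -0.32 (limma adjusted p = 0.00635), which was lost with quantile normalization (-0.20). CLPX had an interaction of 0.48 (limma adjusted p = 0.000328), and SQLE, a flavoprotein without heme on the list of heme use, one of -0.74 (limma adjusted p = 9.21e-06).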

How the results depend on the processing

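Depth is unknown, so no counting error can be given for low values such as those of FECH and ALAD. The numbers of genes called were 7257 in HepG2, 5790 in LM3, 3868 for the interaction and 6618 between the lines. They became 847, 570, 401 and 1911 with an absolute log2 difference of at least 1, and 2612, 1663, 881 and 2817 with Bonferroni adjustment, both stricter by construction. All other alternatives stayed within 1.5 times, and leaving out 1 library gave 6694 to 7140, 5269 to 5940, 3398 to 4049 and 5592 to 6610.

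Among members with a test, the sign of an uncalled value turned in 5 cases. UROD in LM3 was 0.042 with median-of-ratios scaling and 0.01 without LM3 siNC 2 and 3, a choice added after seeing the data. The HMOX1 interaction was 0.10 with quantile normalization. FECH between lines was 0.11 with quantile normalization and -0.063 to 0.0155 without 1 library, the highest value being that without LM3 siNC 2. The cause was not tested. No called value of a member changed sign, nor did the called knockdown and interaction values given for genes of the other lists. Of 210 member values without 1 library, 200 kept their sign and side of the threshold, or, for the knockdown and interaction values of ALAD and CPOX, moved by less than 1 SD, as did 193 of 224 under other alternatives.

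With the replicate block, 7356 genes were called in HepG2, 5691 in LM3, 3735 for the interaction and 6829 between the lines. The UROD interaction then stayed at -0.25 with a limma adjusted p of 0.0523, and the block changed no other member's call. Same-numbered siFASRL and siNC libraries correlated in their deviations at 0.319, 0.371 and -0.2 in HepG2 and -0.08, 0.118 and -0.175 in LM3. The sign was not the same throughout either line. Differently numbered libraries were not compared, so these values cannot decide whether the numbers pair the samples.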
